A study of Homo sapiens with 6 samples.

Results

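A set of 10 genes at the output end of the Hippo pathway were examined in MHCC97H cells, a human hepatocellular carcinoma line. They are the target genes CTGF, CYR61 and ANKRD1, the angiomotin-like genes AMOTL1 and AMOTL2, the kinase gene LATS2, the co-activator genes YAP1 and WWTR1, and the transcription factor genes TEAD1 and TEAD4. The members were taken by gene name, with earlier results of these data known, and 10 of 10 were found among the 58302 rows of the deposited table. RNA sequencing compared 3 libraries of a non-target control cell line with 3 libraries of a DDX17 knockout cell line (DDX17_KO), both made with CRISPR/Cas9 in MHCC97H. DDX17 encodes a DEAD-box RNA helicase. No label says whether the knockout line is 1 clone or a pool, or whether the libraries came from separate cultures, and p-values therefore cover only the variation among these libraries, possibly technical in origin. No other treatment was named for either group.

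In the Hippo pathway the kinases MST1 and MST2 activate LATS1 and LATS2, which phosphorylate the co-activators YAP (gene YAP1) and TAZ (gene WWTR1) and keep them out of the nucleus. Unphosphorylated YAP and TAZ enter the nucleus and bind DNA through TEAD factors, at sites with the core GGAATG. CTGF and CYR61, now also named CCN2 and CCN1, encode secreted matricellular proteins and are the standard readouts of this output. In liver the pathway limits organ size, and active YAP drives liver tumours in mice. The RNA level of YAP1, WWTR1 or a TEAD gene does not show how active the protein is.

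Levels are given in FPKM, fragments scaled to transcript length and to library depth, so that levels of different genes can be compared. Estimated depth ran from 12340000 to 14550000 fragments in controls and from 5350000 to 10620000 in DDX17_KO, with DDX17_KO replicate 2 the shallowest. The FPKM of all rows summed to 264253, 369195 and 262774 in DDX17_KO replicates 1, 2 and 3. In controls that sum ran from 283122 to 318447. Levels of single genes are given as deposited, without rescaling to these sums. DDX17 itself spanned 41.4 to 45.7 FPKM in controls, against 22.4, 7.64 and 19.1 FPKM in DDX17_KO replicates 1, 2 and 3. Both libraries numbered 2, control and DDX17_KO, differed from the other 4: their deviations from the group mean rose with transcript GC content across 15564 genes, with Spearman's rho of 0.584 and 0.533, against rho from -0.534 to -0.320 elsewhere. The deviations of the 3 libraries of a group sum to 0 for each gene, so the negative values are not independent of the positive ones. Of 15 liver and liver cancer markers only KRT8 and KRT18 passed the filter on low values, and ALB, AFP and HNF4A did not exceed 0.365 FPKM in any library. The 13 markers of other cell types summed to 66.6 to 71.2 FPKM in controls and 49.9 to 91.1 FPKM in DDX17_KO, and PTPRC and CD3E did not exceed 0.0151 FPKM. Of the 6 that passed the filter, COL1A1, PDGFRB and HBB were lower and CD68 and COL3A1 higher without overlap of the groups. Over all genes tested these shares were 12.6% and 8.09%. HBB passed limma's test over all 6 libraries, as did 0.0384% of all genes in either direction. COL1A1 joined it without DDX17_KO replicate 2, where 1.72% of all genes passed as lower. COL1A1 spanned 12.4 to 15.7 FPKM in controls and 6.11 to 11.5 FPKM in DDX17_KO, and COL3A1 spanned 20.5 to 25.6 against 27.2 to 79.8 FPKM. HBB, the beta globin gene, spanned 23.1 to 29.4 FPKM in controls, and the table lists it at 0 in all 3 DDX17_KO libraries. The part of these markers in the results below was not tested.

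Of the 10 members, 0 passed limma's test over all 6 libraries at an adjusted p of 0.05, against 0.0384% of the 15620 genes tested. At an unadjusted p under 0.05 there were 3 members, CTGF, CYR61 and LATS2, and each was lower in DDX17_KO. In these 3 genes every DDX17_KO library lay below every control library, against 12.6% of all genes tested. Because the set was chosen with earlier results of these data known, the shares over all genes are given for scale only. No member had every DDX17_KO library above every control, where the share over all genes was 8.09%. In 9 of 10 members, LATS2 being the exception, DDX17_KO replicate 2 was the DDX17_KO library nearest to the control mean. That library also had the lowest DDX17 level of its group, 7.64 FPKM. Leaving it out moved the log2 fold change of 9 of 10 members farther from 0. These are the same 9 members, so this follows from its place nearest to the control mean and is no separate result. Without DDX17_KO replicate 2, CTGF and CYR61 passed as lower, against 1.72% of all genes, and 0 members passed as higher, against 1.95%. The same pair passed as lower without that library after a correction for transcript GC content and length, against 0.893% of genes. In bulk RNA, fewer cells with a transcript and less of it per cell cannot be told apart.

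**Figure D1:**
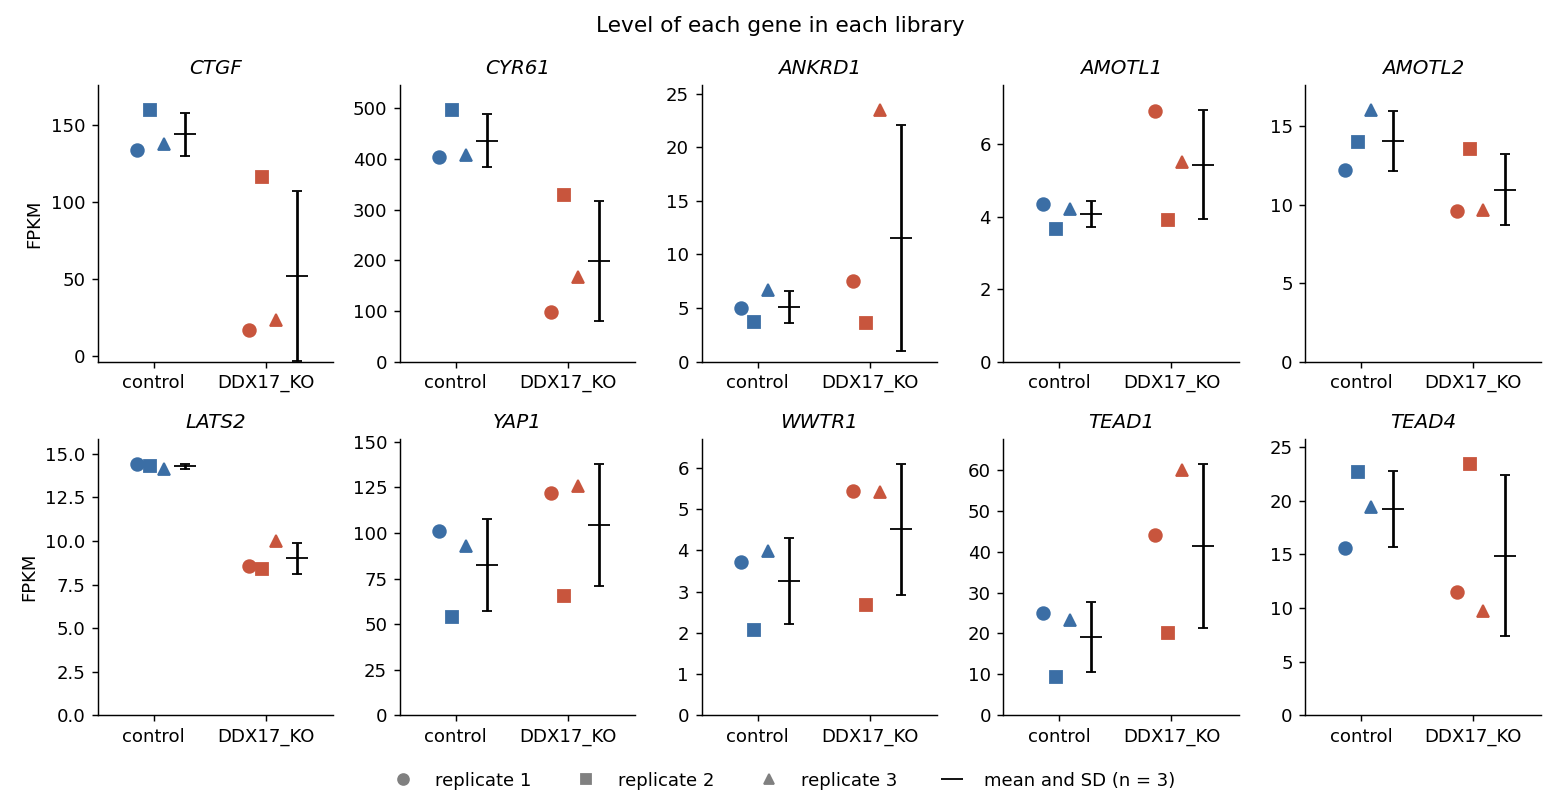
FPKM (linear axis) of each of the 10 genes in control (blue) and DDX17_KO (red) libraries, with circles, squares and triangles for replicates 1, 2 and 3, and a black bar for the mean with its SD (n = 3). CTGF, CYR61 and LATS2 do not overlap between the groups, and the DDX17_KO square lies near the controls in CTGF (116 FPKM) but not in LATS2 (8.40 FPKM).

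CTGF, which encodes a matricellular protein that promotes matrix production, had the lowest ratio of group means of the 10. CTGF (ENSG00000118523, hg38 chromosome 6, 131948176 to 131951373, minus strand) came to 134, 160 and 138 FPKM across control replicates 1, 2 and 3. The DDX17_KO replicates 1, 2 and 3 gave 17.0, 116 and 23.0 FPKM. The groups did not overlap. In deposited FPKM, not rescaled to the FPKM sum of each library, DDX17_KO replicate 2 lay 77.4% of the way from the mean of the other DDX17_KO libraries to the control mean. Group means were 144 ± 14.2 FPKM for controls against 52.0 ± 55.5 FPKM for DDX17_KO (SD, n = 3 each), a ratio of 0.361. limma put the log2 fold change, on the scale of log2(FPKM + 1), at -1.97 (SE 0.63, 95% interval -3.44 to -0.50) with adjusted p = 0.351. By exact permutation, two-sided, p was 0.1, the least that 3 against 3 libraries allow. When DDX17_KO replicate 2 was left out, limma gave -2.80 with adjusted p = 0.00464, and over 19 other settings the adjusted p spanned 0.00401 to 0.790. CTGF has 1 annotated transcript, and the values correspond to about 423 fragments in DDX17_KO replicate 1 and 1452 in the shallower DDX17_KO replicate 2, so counting error is small beside the gap between these libraries.

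CYR61, the other matricellular target, was the most abundant member in both groups. CYR61 (ENSG00000142871, chromosome 1, 85580761 to 85583962, plus strand) came to 404, 496 and 409 FPKM in control replicates 1, 2 and 3, against 97.8, 329 and 168 FPKM in the DDX17_KO replicates in that order. Every DDX17_KO library lay below every control, and DDX17_KO replicate 2 was again the highest of its group. The means were 436 ± 52.2 and 198 ± 119 FPKM (SD, n = 3 each), a ratio of 0.455. limma put the log2 fold change at -1.30 (SE 0.41, 95% interval -2.25 to -0.36) with adjusted p = 0.341, and the exact permutation p was 0.1. When DDX17_KO replicate 2 was left out, limma gave -1.75 with adjusted p = 0.0323, the lowest over 19 settings that reached up to 0.790.

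CTGF lay lower relative to CYR61 in DDX17_KO replicates 1 and 3 than in the controls. The ratio of CYR61 to CTGF was 3.02, 3.10 and 2.96 in the 3 controls and 2.84 in DDX17_KO replicate 2, which lay just below them. It was 5.75 in DDX17_KO replicate 1 and 7.29 in DDX17_KO replicate 3. The groups overlapped in this ratio because of DDX17_KO replicate 2.

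ANKRD1, a cardiac and muscle ankyrin repeat protein gene that is also a YAP target, did not separate the groups as the CCN pair did. ANKRD1 (ENSG00000148677, chromosome 10, 90912096 to 90921276, minus strand) stood at 5.00, 3.71 and 6.67 FPKM in the controls. DDX17_KO replicates 1, 2 and 3 gave 7.56, 3.59 and 23.5 FPKM. The groups overlapped: replicate 1 lay just above the controls, replicate 2 just below them and only replicate 3 far above. The means were 5.12 ± 1.48 and 11.5 ± 10.5 FPKM (SD, n = 3 each), and limma gave a log2 fold change of 0.72 (95% interval -0.57 to 2.00, adjusted p = 0.519). Leaving out DDX17_KO replicate 3 brought it to 0.06, and leaving out DDX17_KO replicate 2 to 1.27 with adjusted p = 0.102.

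The promoters of these targets are shown because they hold the TEAD core at different copy number while the log2 fold changes of their RNA differed in sign. They are the 250 bases before the annotated start, from RefSeq on GRCh38.p14, in the direction of the gene, with GGAATG or its reverse complement CATTCC in capitals. The sequences lie at chr6:131951373-131951622 for CTGF, chr10:90921088-90921337 for ANKRD1 and chr3:134374448-134374697 for the second of the starts of AMOTL2, each on the minus strand. Promoters of 7 of the 10 members were found in that table; CYR61, TEAD1 and TEAD4 were not.
CTGF: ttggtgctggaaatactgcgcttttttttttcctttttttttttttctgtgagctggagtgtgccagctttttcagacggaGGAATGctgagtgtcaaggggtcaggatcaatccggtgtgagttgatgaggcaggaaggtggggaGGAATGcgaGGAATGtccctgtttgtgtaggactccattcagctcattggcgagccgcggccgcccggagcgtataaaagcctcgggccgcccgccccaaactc
ANKRD1: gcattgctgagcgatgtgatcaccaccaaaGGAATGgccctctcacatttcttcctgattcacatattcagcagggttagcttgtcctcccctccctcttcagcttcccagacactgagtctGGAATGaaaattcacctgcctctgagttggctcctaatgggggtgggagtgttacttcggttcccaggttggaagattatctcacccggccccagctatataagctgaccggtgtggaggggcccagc
AMOTL2: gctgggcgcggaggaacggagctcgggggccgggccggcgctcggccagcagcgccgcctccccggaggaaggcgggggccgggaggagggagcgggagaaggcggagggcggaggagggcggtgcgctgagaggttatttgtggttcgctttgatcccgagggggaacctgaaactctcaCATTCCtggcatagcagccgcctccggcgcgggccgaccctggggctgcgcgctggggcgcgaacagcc

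The CTGF promoter held 3 copies of the core, beginning 169, 104 and 95 bases before the start. ANKRD1 held 2 copies, at 220 and 128 bases, and AMOTL2 held 1 on the other strand, 69 bases before that start. YAP1 also held 1, at 162 bases before its start, and none was found in this window in LATS2, AMOTL1 or WWTR1, nor at the other AMOTL2 start. Of 35116 promoter windows of this length, 11.9% held at least 1 copy on either strand, 0.940% at least 2 and 0.0826% at least 3. The AP-1 motif TGANTCA was found in ANKRD1 alone of the 7 members with a promoter sequence, against 6.57% of all windows. The short SMAD motif CAGAC was found in CTGF, ANKRD1, AMOTL1 and the first AMOTL2 start, against 38.0% of all windows. GTCTAGAC and the SRF CArG box were in none of these 7, against 0.182% and 1.16% of windows. CYR61, TEAD1 and TEAD4 could not be searched. In ANKRD1 a CAGAC match on the other strand, 132 to 128 bases before the start, shared a base with the TEAD core that begins at 128; no other of these motifs overlapped a copy of that core. These matches describe the letters only.

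The angiomotins are junctional scaffold proteins that bind YAP and TAZ and hold them in the cytoplasm, and AMOTL2 is itself a YAP target. AMOTL2 (ENSG00000114019, chromosome 3, 134355874 to 134375479) came to 12.2, 14.0 and 16.0 FPKM in the controls, against 9.60, 13.6 and 9.69 FPKM in DDX17_KO replicates 1, 2 and 3. In deposited FPKM, DDX17_KO replicate 2 lay inside the control range and the other DDX17_KO libraries below it. This placement was not tested on levels rescaled to the FPKM sum of each library. limma gave a log2 fold change of -0.34 (95% interval -0.82 to 0.14, adjusted p = 0.437). With a correction for transcript GC content and length it was -0.10.

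AMOTL1 (ENSG00000166025, chromosome 11, 94706431 to 94876753) came to 4.35, 3.66 and 4.21 FPKM in the controls, against 6.91, 3.91 and 5.51 FPKM in DDX17_KO replicates 1, 2 and 3. Here too, in deposited FPKM, DDX17_KO replicate 2 lay inside the control range, while the other DDX17_KO libraries lay above it. limma gave a log2 fold change of 0.32 (95% interval -0.18 to 0.82, adjusted p = 0.473), with 0.16 when DDX17_KO replicate 1 was left out and 0.50 when DDX17_KO replicate 2 was (adjusted p = 0.0911). AMOT, the founding member of the family, did not exceed 0.0151 FPKM in any library, so AMOTL2 and AMOTL1 made up nearly all angiomotin RNA. AMOTL1 was 26.2%, 20.7% and 20.8% of the summed family FPKM in controls and 41.8%, 22.3% and 36.2% in DDX17_KO replicates 1, 2 and 3.

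LATS2, the kinase that phosphorylates YAP and TAZ and is also a YAP target, had the lowest adjusted p of the 10 over all 6 libraries. LATS2 (ENSG00000150457, chromosome 13, 20973032 to 21061547, minus strand) came to 14.4, 14.3 and 14.1 FPKM in the controls, against 8.57, 8.40 and 10.0 FPKM in DDX17_KO replicates 1, 2 and 3. DDX17_KO replicate 2 was the lowest library, beside the others of its group, unlike in CTGF and CYR61. The means were 14.3 ± 0.152 and 8.998 ± 0.889 FPKM (SD, n = 3 each), a ratio of 0.630. limma put the log2 fold change at -0.62 (SE 0.17, 95% interval -1.003 to -0.23). With an adjusted p of 0.307 by limma and an exact permutation p = 0.1, LATS2 did not pass. Its log2 fold change ran from -0.69 to -0.43 and its adjusted p from 0.0535 to 0.790 over 19 settings.

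YAP1 was the third most abundant member in controls, and WWTR1 the least abundant in both groups. YAP1 (ENSG00000137693, chromosome 11, 102110461 to 102233423) came to 101, 53.9 and 92.7 FPKM in control replicates 1, 2 and 3, against 122, 65.7 and 126 FPKM in the DDX17_KO replicates in that order. WWTR1 (ENSG00000018408, chromosome 3, 149517235 to 149736714) came to 3.72, 2.06 and 3.98 FPKM in the controls, against 5.44, 2.67 and 5.42 FPKM in DDX17_KO. In both genes the library numbered 2 was the lowest of each group, and the groups overlapped. Their transcripts have a GC content of 43.5% and 40.9%, against 51.5% for CTGF.

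For YAP1 limma gave a log2 fold change of 0.33 (95% interval -0.46 to 1.12, adjusted p = 0.623). For WWTR1 it gave 0.36 (95% interval -0.33 to 1.04, adjusted p = 0.541). Leaving out control replicate 2 brought these to 0.05 and 0.14, and the correction for GC content and length to 0.19 and 0.16. Leaving out DDX17_KO replicate 2 gave 0.63 for each, with adjusted p = 0.159 and 0.119. In the fit with a replicate block, the 95% interval of WWTR1 was 0.06 to 0.66. The ratio of YAP1 to WWTR1 was 27.2, 26.2 and 23.3 in controls and 22.4, 24.6 and 23.2 in DDX17_KO, so YAP1 supplied most of the co-activator RNA in every library. Without both libraries numbered 2, limma gave 0.35 for YAP1 (95% interval 0.09 to 0.61, adjusted p = 0.0895). In that fit it gave 0.41 for WWTR1 (95% interval 0.14 to 0.68, adjusted p = 0.0756). Neither gene passed at an adjusted p of 0.05 in any fit.

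TEAD1, one of the 4 DNA-binding partners of YAP and TAZ, was the member with the highest positive log2 fold change. TEAD1 (ENSG00000187079, chromosome 11, 12674591 to 12944483) came to 25.1, 9.35 and 23.2 FPKM in control replicates 1, 2 and 3, against 44.1, 20.04 and 59.9 FPKM in the DDX17_KO replicates in that order. The groups overlapped, since DDX17_KO replicate 2 lay below control replicates 1 and 3. The means were 19.2 ± 8.59 and 41.4 ± 20.1 FPKM (SD, n = 3 each). limma put the log2 fold change at 1.05 (95% interval -0.07 to 2.17) with adjusted p = 0.373. It was 0.62 when control replicate 2 was left out and 0.75 after the correction for GC content and length. Without both libraries numbered 2, TEAD1 passed as higher, at 1.06 log2 units with adjusted p = 0.0448 by limma, against 5.51% of all genes. CTGF and CYR61 passed as lower in that fit, against 3.30%.

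TEAD4 (ENSG00000197905, chromosome 12, 2959330 to 3040673) came to 15.6, 22.7 and 19.4 FPKM in the controls, against 11.5, 23.5 and 9.69 FPKM in DDX17_KO replicates 1, 2 and 3. The libraries numbered 2 were the highest of each group, the reverse of TEAD1, and the transcript of TEAD4 has a GC content of 60.4% against 41.3% for TEAD1. For TEAD4 limma gave a log2 fold change of -0.43 (95% interval -1.19 to 0.33, adjusted p = 0.514). After the correction for GC content and length it was -0.11, and -0.79 when DDX17_KO replicate 2 was left out.

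TEAD2 and TEAD3, which are not among the 10 and were described after their values were seen, did not overlap between the groups, with DDX17_KO the lower, as in 12.6% of all genes tested. TEAD2 came to 8.52, 8.86 and 7.47 FPKM in the controls, against 6.09, 2.56 and 4.79 FPKM in DDX17_KO, with adjusted p = 0.352 by limma. TEAD3 came to 8.46, 9.66 and 8.75 FPKM in the controls, against 6.95, 5.38 and 6.70 FPKM in DDX17_KO, with adjusted p = 0.369. The 4 TEAD genes summed to 57.7, 50.6 and 58.9 FPKM in the controls, against 68.7, 51.4 and 81.1 FPKM in DDX17_KO. TEAD1 was 43.5%, 18.5% and 39.4% of that sum in controls and 64.2%, 39.0% and 73.9% in DDX17_KO replicates 1, 2 and 3. Its share was thus highest in DDX17_KO replicates 1 and 3, and DDX17_KO replicate 2 lay within the range of the controls.

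**Figure D2:**
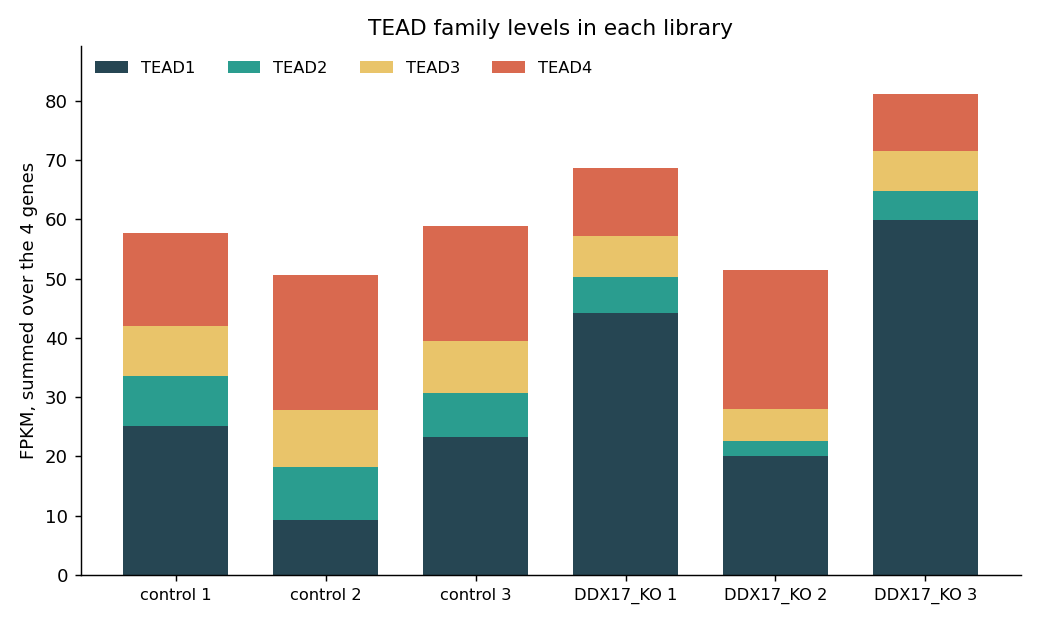
FPKM of the 4 TEAD genes stacked for each library (vertical axis, linear, from 0). TEAD1, the dark segment, spans 9.35 to 25.1 FPKM over the controls; it stands at 44.1 and 59.9 FPKM in DDX17_KO replicates 1 and 3, above every control, and at 20.04 FPKM in DDX17_KO replicate 2, inside the control range.

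In order of mean level, the controls ran CYR61, CTGF, YAP1, TEAD4, TEAD1, LATS2, AMOTL2, ANKRD1, AMOTL1 and WWTR1. CYR61, CTGF and YAP1 did not overlap with the next gene in that order, while each neighbour from TEAD4 through TEAD1 and LATS2 to AMOTL2 overlapped with the next. AMOTL2 lay above ANKRD1 without overlap, and ANKRD1, AMOTL1 and WWTR1 overlapped likewise with their neighbours. In DDX17_KO the order was CYR61, YAP1, CTGF, TEAD1, TEAD4, ANKRD1, AMOTL2, LATS2, AMOTL1 and WWTR1, and each neighbour overlapped with the next except LATS2, which lay above AMOTL1. YAP1 thus lay above CTGF in mean level in DDX17_KO and below it in controls.

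Across genes, only the libraries numbered 2 deviated together as a distinct pair, with a correlation of 0.546. Control replicate 1 went as closely with DDX17_KO replicate 3 (0.329) as with DDX17_KO replicate 1 (0.300). Taken by number all the same, 8 members gave ratios of DDX17_KO to control on 1 side of 1 in all 3 pairs. CTGF, CYR61, LATS2 and AMOTL2 were below 1 in each pair, 4 of 10 members against 27.5% of all genes. YAP1, WWTR1, TEAD1 and AMOTL1 were above 1 in each, 4 of 10 against 26.2%. The TEAD1 ratio was 1.76, 2.14 and 2.58 in pairs 1, 2 and 3, and the YAP1 ratio was 1.20, 1.22 and 1.36. The CTGF ratio was 0.127, 0.724 and 0.167, and the LATS2 ratio 0.594, 0.587 and 0.709. The ratios of YAP1, WWTR1 and LATS2 varied less among the pairs than those of TEAD1 and CTGF, but no label pairs these libraries. With the replicate number as a block, 0 members passed limma's test, as against 0.0256% of all genes, and their adjusted p ran from 0.0654 for TEAD1 to 0.232 for TEAD4.

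**Figure D3:**
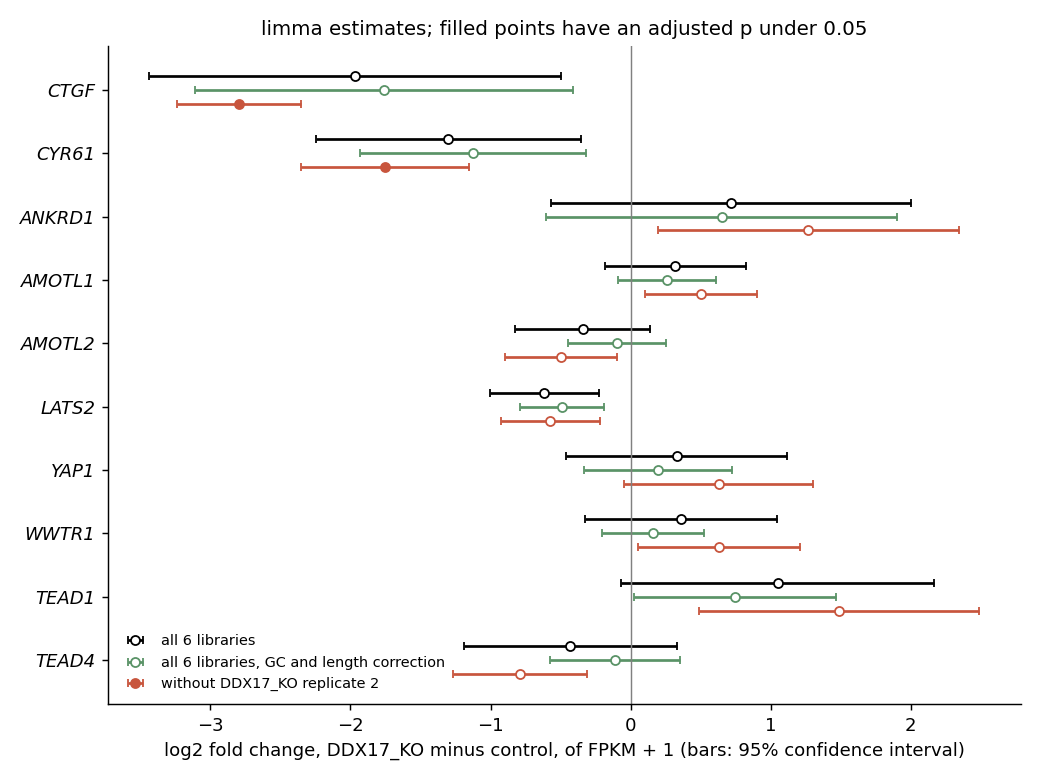
limma log2 fold change of FPKM + 1, DDX17_KO minus control, with its 95% confidence interval, for each gene in 3 fits: all 6 libraries (black), all 6 with a correction for GC content and length (green) and without DDX17_KO replicate 2 (red). Filled points, CTGF at -2.80 and CYR61 at -1.75 without DDX17_KO replicate 2, have an adjusted p under 0.05.

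The wider YAP and TAZ target signature, 22 genes of which CTGF, CYR61, ANKRD1, AMOTL2 and LATS2 are members here, had members on both sides of 0. Of 21 tested, 14 lay below 0 and 7 above, and the median log2 fold change was -0.18, beside -0.03 and 52.5% below 0 over all genes tested. After the correction for GC content and length the list's median was -0.08. By limma 0 passed over all 6 libraries. The groups did not overlap in 6, each lower: CTGF, CYR61, LATS2, NUAK2, IGFBP3 and ARHGEF17, against 12.6% of all genes tested, and 0 were higher without overlap, against 8.09%. NUAK2, an AMPK-related kinase gene, came to 7.82, 11.8 and 8.75 FPKM in the controls, against 2.65, 4.67 and 4.28 FPKM in DDX17_KO, and without DDX17_KO replicate 2 its limma adjusted p was 0.0498. In that fit NUAK2, CTGF and CYR61 passed as lower, against 1.72% of all genes, and 0 of the list passed as higher, against 1.95%. Without both libraries numbered 2, the myoferlin gene MYOF and DOCK5 passed as higher, against 5.51% of all genes, and CTGF and CYR61 as lower, against 3.30%. MYOF came to 38.9, 17.1 and 40.9 FPKM in the controls, against 72.4, 28.3 and 73.6 FPKM in DDX17_KO. The groups overlapped in MYOF, since DDX17_KO replicate 2 lay below control replicates 1 and 3, and in DOCK5.

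Upstream, the 26 Hippo kinase and scaffold genes showed no shared direction, with 11 below 0, 15 above and a median log2 fold change of 0.05. By limma 0 passed over all 6 libraries, and the groups did not overlap in LATS2, MAP4K2 and MINK1, each lower, 3 of 26 genes and so near the 12.6% of all genes tested. After the correction for GC content and length over all 6 libraries the list's median was -0.01. Without DDX17_KO replicate 2, and without that correction, the median was 0.24 and 2 genes passed as higher, against 1.95% of all genes. These were TAOK1, a kinase gene upstream of MST1 and MST2, and MOB1B, which encodes a LATS co-activator. TAOK1 came to 8.82, 3.29 and 6.75 FPKM in the controls, against 23.5, 6.93 and 26.0 FPKM in DDX17_KO, with a limma adjusted p of 0.0453 in that fit. MOB1B came to 1.97, 0.636 and 1.32 FPKM in the controls, against 5.02, 1.45 and 4.44 FPKM in DDX17_KO, with an adjusted p of 0.0498. Without both libraries numbered 2 there were 4, TAOK1, MOB1B, LATS1 and MAP4K5, against 5.51% of all genes; LATS1, the paralogue of LATS2, had adjusted p = 0.0396 by limma and MAP4K5 0.0486. The most abundant genes of the list, WWC3 and MOB1A, had adjusted p of 0.561 and 0.892 over all 6 libraries. In the CCN family, WISP2 was also lower without overlap, as in 12.6% of all genes, at 25.0, 37.6 and 29.3 FPKM in the controls against 20.2, 23.0 and 16.0 FPKM in DDX17_KO, with an adjusted p of 0.369. NOV stood at 4.93 to 6.52 FPKM in controls and 6.10 to 12.1 FPKM in DDX17_KO, and WISP1 and WISP3 were listed at 0 in every library.

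CTGF and CYR61 respond to serum and to SRF as well as to YAP, and the median of each of those gene lists lay below 0. Of 20 serum immediate early genes tested, 20 lay below 0, at a median log2 fold change of -0.71, with 0 past limma's test over all 6 libraries. The 22 genes of that list summed to 692 to 871 FPKM in controls and to 198, 767 and 168 FPKM in DDX17_KO replicates 1, 2 and 3. In deposited FPKM, DDX17_KO replicate 2 thus lay inside the control range. Without it 9 of the 20 passed as lower, among them DUSP1, FOS and EGR1, against 1.72% of all genes. After the correction for GC content and length over all 6 libraries the list's median was -0.49. DUSP1, a MAP kinase phosphatase gene, came to 401, 521 and 407 FPKM in the controls, against 76.0, 432 and 80.7 FPKM in DDX17_KO. Of 17 SRF and MRTF target genes tested, 15 lay below 0 with a median of -0.29, or -0.18 after that correction, and 0 passed limma's test over all 6 libraries or without DDX17_KO replicate 2. ACTB, the beta actin gene, came to 545, 701 and 614 FPKM in the controls, against 350, 521 and 503 FPKM in DDX17_KO. The part of either list in the CTGF and CYR61 values was not tested. CTGF is also known as a target of SMAD factors.

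**Figure D4:**
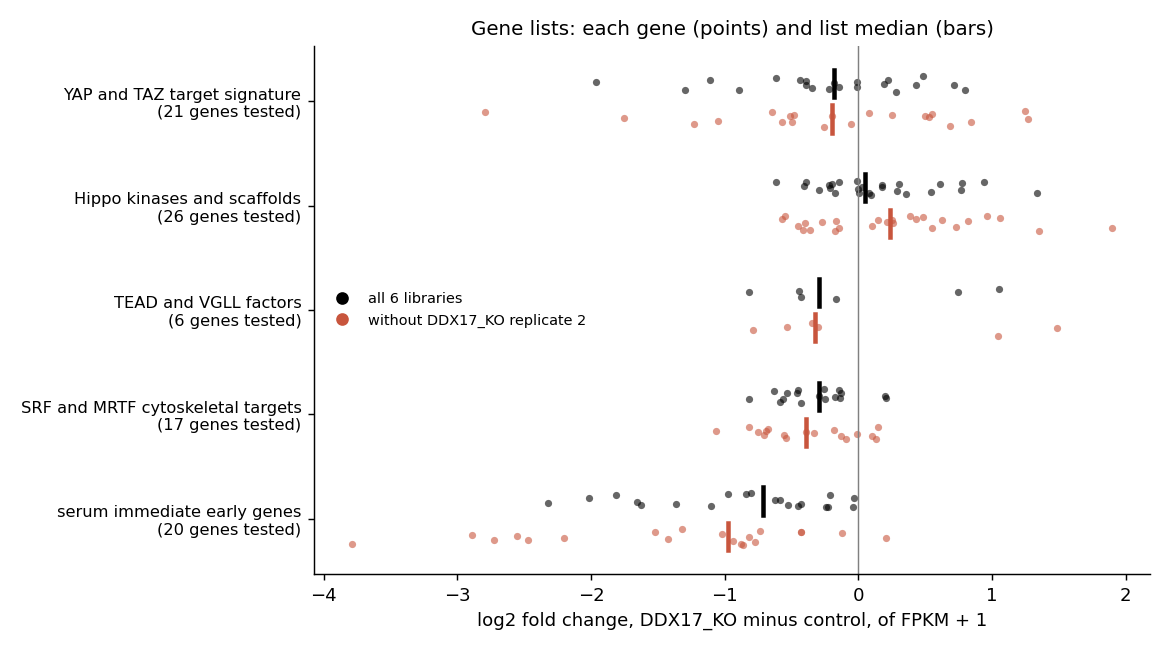
limma log2 fold change of FPKM + 1, DDX17_KO minus control, for each tested gene (points) and the median (bars) of 5 gene lists, with all 6 libraries (black) and without DDX17_KO replicate 2 (red). The medians of the immediate early list lie at -0.71 and -0.98, those of the Hippo kinases and scaffolds at 0.05 and 0.24.

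The patterns most like CTGF, CYR61 and YAP1 were sought among 5064 other protein-coding genes averaging 5 FPKM or more, as a description over 6 libraries that share their depth and GC trends. The 4 genes most like CTGF by Pearson's r of log2(FPKM + 1) were VPS37B, DUSP1, CKS1B and HIST3H2A, with r from 0.988 to 0.996. CKS1B, the gene of a cyclin-dependent kinase regulatory subunit, came to 17.8, 19.3 and 18.2 FPKM in the controls, against 11.002, 18.3 and 12.5 FPKM in DDX17_KO. The 5 most like CYR61 were FHOD1, SREBF2, PARVB, FSCN1 and ALDH9A1, with r from 0.992 to 0.997, and CYR61 and CTGF had r of 0.978 with each other. FSCN1, the gene of the actin-bundling protein fascin, came to 97.9, 107 and 105 FPKM in the controls, against 53.1, 91.0 and 63.6 FPKM in DDX17_KO. Those most like YAP1 were EIF2S1, WASHC2A, KPNA1, CSE1L and PPP6R3, with r from 0.995 to 0.998. In these 5, as in YAP1, the libraries numbered 2 were the lowest of each group.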

How the data were processed

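Total RNA of 6 MHCC97H libraries was sequenced, grouped by the labels, with replicate numbers from the sample titles. The authors deposited gene levels in FPKM; the unit was read from the values, since value times transcript length fell on whole multiples of a step in genes with 1 transcript, within 0.05 of a whole number up to 20 fragments in at least 99.968% of values. That step gave the depths. Tools named in the submitters' processing notes are HISAT2, StringTie, edgeR and CASAVA 1.8, with hg38 as the build and no roles; the annotation release and strand setting are not given in the sources. Fragments of a gene and an overlapping antisense gene cannot be told apart, and the annotated antisense neighbours of the members did not exceed a group mean of 0.303 FPKM.

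limma 3.58.1 in R 4.3.3 was fitted to log2(FPKM + 1) with an intensity trend, on the 15620 genes whose mean reached 0.5 FPKM, with Benjamini-Hochberg adjustment over all of them; on that scale the changes of low genes come out too small. All 10 members passed that filter. The fit recovered changes of known size in simulated data with independent noise for each gene and library. Those data held none of the shared GC deviations of the real libraries, so the power of the fit here was not tested. For single levels, an exact permutation test (two-sided, 20 arrangements) was used, in Python 3.11.15, scipy 1.17.1. Transcript length and GC content came from GENCODE release 29, matched by identifier for 58039 rows, and the correction for them used splines with 4 degrees of freedom. Members and lists were chosen with earlier results of these data known. The genes named outside the 10 are, from each list, those past the threshold with all libraries or without DDX17_KO replicate 2 and the most abundant, with others marked or named for counts of groups that did not overlap. Deviations of same-number libraries from their group means correlated across genes at 0.300, 0.546 and 0.214 for replicates 1, 2 and 3; any pairing comes from these data, and the unblocked fit is the one reported. Alternatives were a replicate block, other pseudocounts, filters, scalings and limma settings, the GC correction and libraries left out. Of the genes named for likeness to CTGF, 1 is not reported here.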

Additional observations from a re-analysis of the deposited data

How the results depend on the processing

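Over 19 alternatives, no log2 fold change of the 10 members changed sign; 183 stayed on the same side of the threshold and 7 came to pass it by limma, those of CTGF and CYR61 without DDX17_KO replicate 2, with the GC correction also without that library, and without both libraries numbered 2, where TEAD1 joined them. The number of members called was 0 with all libraries, 0 to 2 with single libraries left out, 2 with the GC and length correction without DDX17_KO replicate 2, where 0.893% of genes were called lower, and 3 without both libraries numbered 2. Over all genes 6 were called, and 3 with no filter, 11 with the GC and length correction, 254 with that correction without DDX17_KO replicate 2, 1376 without both libraries numbered 2, and 3 to 572 with single libraries left out; the cause was not tested. With the replicate number as a block 4 genes and 0 members were called, and the block changed no member's call. Median-of-ratios scaling moved the median of all genes from -0.03 to 0.03. The fewest fragments behind a member's value were about 38.0 (ANKRD1 in DDX17_KO replicate 2), by the longest annotated transcript.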
